A study of Macaca fascicularis and Mus musculus with 492 samples.

Results

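CMK9 and CMK6 are embryonic stem cell lines of the cynomolgus monkey (Macaca fascicularis), and their single cells were compared as grown on feeder cells. The columns of the monkey table labelled as CMK9 on feeder (8 cells) and CMK6 on feeder (14 cells) were used, 22 of the 492 single-cell samples of the series and of its 421 monkey samples. Both lines were kept on mouse embryonic feeders in a human-type stem cell medium with 20% serum replacement, 1000 U/ml mouse LIF and 4 ng/ml bFGF, and were lifted as clumps and made into single cells with trypsin in the presence of a ROCK inhibitor. A further 9 cells of CMK6, grown without feeders in another medium and carrying another title code, are given beside them. SC3-seq, the assay used, turns the RNA of 1 cell into amplified cDNA and reads only the 3' end of each transcript. The labels name no clones, passages, donors or repeat cultures, so each line is 1 sample: no test was possible between the lines, cells are not replicates, and the differences below describe these 2 cultures.

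Monkey embryonic stem cells grown with bFGF hold the primed type of pluripotency, the state of the epiblast after implantation. Such cells form epithelial sheets joined by E-cadherin and depend on FGF and on NODAL and activin signals, and when they start to leave pluripotency toward mesendoderm they turn on primitive streak factors such as EOMES and T and lose epithelial genes. VIM, an intermediate filament, is among the mesenchymal genes used below, and HMGA2 is a chromatin protein of embryonic and proliferating cells.

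Levels are given as log2(RPM + 1), where RPM is the deposited read count scaled to library size, the level of a line is the mean over its cells, and a difference is CMK9 minus CMK6. The step of 1 read showed 1684520 to 3282228 reads per cell in CMK9 and 1732667 to 3244441 in CMK6, with 10368 to 12177 and 10049 to 11114 genes at 1 RPM or more. A gene was kept where its mean reached 2 in at least 1 line, which left 10581 of 28797 genes. No use of molecular identifiers is stated. Intervals below are for shares of cells and cover only the sampling of cells within a culture.

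All 22 cells carried the stem cell identity of their labels. POU5F1, SOX2 and NANOG, the core factors of pluripotency, were at 10.6, 8.56 and 7.88 in CMK9 and at 10.5, 8.49 and 8.23 in CMK6, and each was at 6.74 or more in every CMK9 cell. Of 14 measured core pluripotency genes 13 passed the filter, none differed by 2 or more, and the median difference was -0.14, beside 0.0924 over all genes. The mean over the 14 genes ran from 6.46 to 7.06 in CMK9 cells and from 6.43 to 7.54 in CMK6 cells. Among fibroblast markers, which the feeder cells would carry, COL3A1 was at or near 0 in both lines (at most 0.38 in a CMK9 cell and 0.62 in a CMK6 cell), LUM was listed at 0 in all 22 cells and DCN reached at most 0.60, whereas COL1A1 was at 8.41 and 9.12 and THY1 at 7.0 and 6.03. Of that list 8 genes passed, with COL6A1 past 1, COL5A1 and BST2 past -1 and a median of -0.17. Over the 18 measured members of that list, the summed level ran from 226.4 to 1665 RPM in CMK9 cells and from 212.6 to 1722 RPM in CMK6 cells. The blood marker PTPRC was listed at 0 in all 22 cells.

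The lines nevertheless differed at many genes. A difference of at least 2, which is 4-fold on this scale, was seen for 214 genes in favour of CMK9 (2.02% of those kept) and a difference of -2 or less for 105 (0.992%), together 319 (3.01%). At a difference of 1 the counts were 1279 (12.1%) and 703 (6.64%). For scale, feeder-free minus on-feeder CMK6, a change of medium within 1 line, gave 107 genes at 2 or more (1.03% of 10419) and 163 at -2 or less (1.56%). The numbers depend strongly on the constant added before the logarithm, with 13 and 9 genes at 10 RPM and 710 and 293 at 0.1 RPM. The balance of the directions depends on the summary: with log2 of the mean RPM in place of the mean of log2, 226 genes were at 2 or more and 286 at -2 or less. In only 19 genes (0.18%) did no cell of 1 line overlap the range of the other, 9 with CMK9 higher (0.0851%) and 10 with CMK9 lower (0.0945%).

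**Figure D1:**
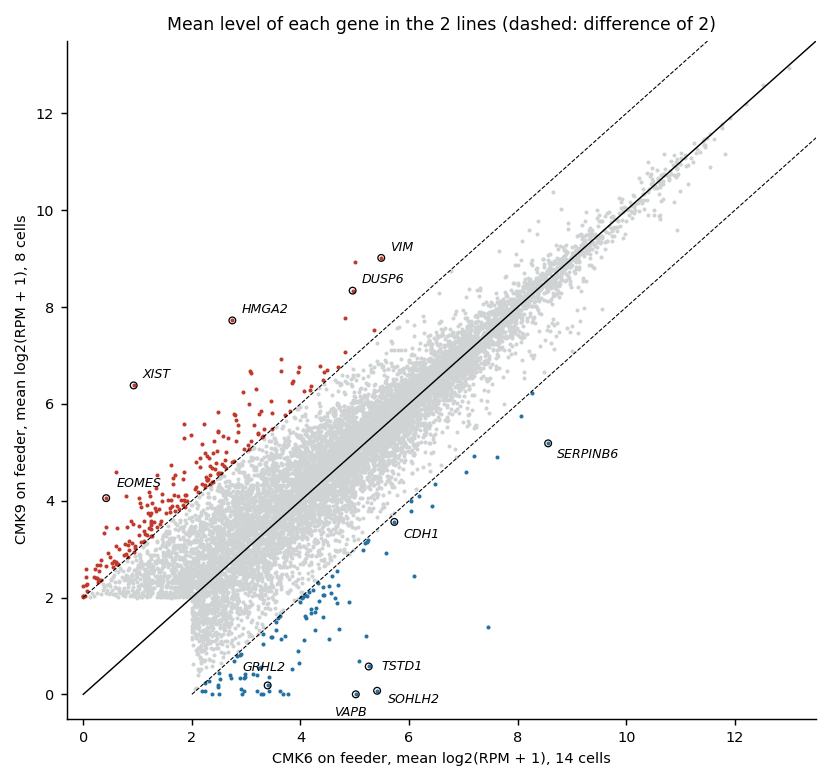
Mean level of each of the 10581 kept genes in CMK6 (x axis, 14 cells) and CMK9 (y axis, 8 cells), as log2(RPM + 1), with the solid line at equal levels and the dashed lines at differences of 2. Red points are the 214 genes higher in CMK9 by at least 2 and blue points the 105 lower by at least 2, and circled genes are named in the text.

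HMGA2 and VIM were higher in CMK9, EOMES was present in most of its cells, and CDH1 was lower. HMGA2 was at 6.8, 6.97, 9.24, 7.98, 8.1, 8.53, 7.78 and 6.4 in CMK9 cells 1 to 8, and ran from 0 over a median of 2.19 to 7.17 in CMK6. The ranges overlapped through 1 CMK6 cell, cell 10 at 7.17, and 4 of 14 CMK6 cells had less than 1 RPM. The line means were 7.72 and 2.75, a difference of 4.98. Feeder-free CMK6 had HMGA2 at 4.87 (0.70 to 7.35), so against that culture the difference was 2.85.

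VIM was at 7.75, 8.02, 11.49, 9.18, 9.45, 10.55, 8.85 and 6.83 in the CMK9 cells and at 0.50 to 8.92, with a median of 5.32, in CMK6. The cells overlapped, with 4 CMK6 cells (3, 9, 10 and 14) inside the CMK9 range. The line means of VIM were 9.01 and 5.49, a difference of 3.53, and feeder-free CMK6 was at 5.22.

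EOMES, a T-box factor of the primitive streak, was at 2.46, 0, 5.52, 0.6, 7.89, 6.05, 2.79 and 7.11 in the CMK9 cells. It was listed at 0 in 13 of 14 CMK6 cells and stood at 5.91 in cell 14. EOMES thus reached 1 RPM in 6 of 8 CMK9 cells (75%, exact 95% Clopper-Pearson interval 34.9% to 96.8%) and 1 of 14 CMK6 cells (7.14%, 0.181% to 33.9%). In feeder-free CMK6 it did so in 3 of 9 cells, at no more than 2.53. The line means of EOMES were 4.05 and 0.42, a difference of 3.63.

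CDH1, the E-cadherin gene, went the other way. It was at 6.08, 5.21, 5.06, 4.28, 0, 3.11, 3.93 and 0.83 in the CMK9 cells. In CMK6 it was 0 in cell 10 and between 4.54 and 7.61 in the other cells, with a median of 5.95 over all 14. The means were 3.56 and 5.73, a difference of -2.17, and feeder-free CMK6 was at 5.88. Within CMK9 the lowest values were in cells 5 and 8, the cells with the highest EOMES. Cell 8, however, had the lowest VIM and HMGA2 of its line, and the lowest mean over the mesenchymal genes described below (2.48). Cell 3 held both EOMES and CDH1 (5.06). Whether these genes move together from cell to cell was not tested.

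**Figure D2:**
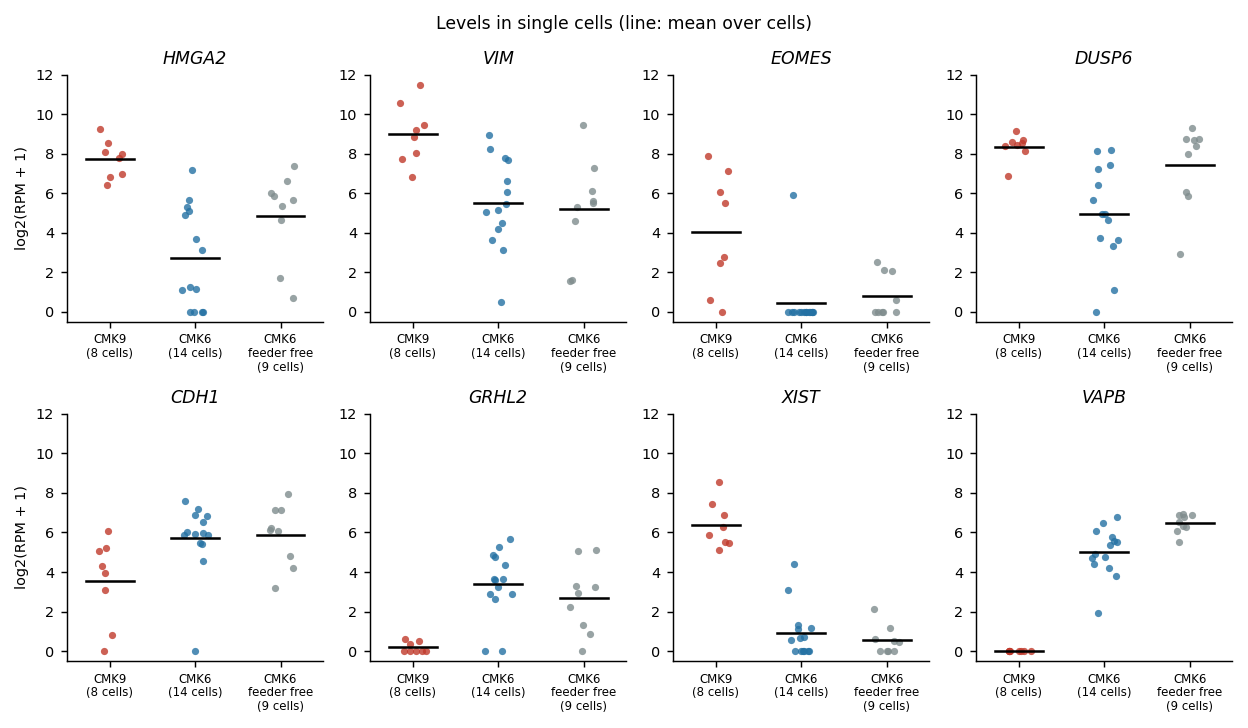
Level of 8 genes, as log2(RPM + 1), in single cells of CMK9 on feeder (8 cells), CMK6 on feeder (14 cells) and feeder-free CMK6 (9 cells), with a black line at the mean over cells. XIST and VAPB separate all CMK9 cells from all CMK6 cells, whereas HMGA2, VIM, EOMES and CDH1 overlap between the lines.

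The other genes of the epithelial and mesenchymal lists followed only in part. Of 18 mesenchymal genes 11 passed, with 3 past 2 (VIM, ZEB1 and CDH2) and 4 past 1 in favour of CMK9, 1 past -1, and a median difference of 0.70. Over all kept genes the shares past 2, 1 and -1 were 2.02%, 12.1% and 6.64%. CDH2, the N-cadherin gene, was at 5.78 in CMK9 and 3.71 in CMK6. ZEB1, a repressor of CDH1, was at 2.40 and 0.25 and reached 1 RPM in 5 of 8 and 2 of 14 cells. SNAI1, another such repressor, was at 4.09 and 3.0, and FN1, the fibronectin gene, differed by -0.24.

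GRHL2 and the splicing factor ESRP1 stood out among the epithelial genes. GRHL2, a transcription factor that maintains epithelia, was at most 0.60 in any CMK9 cell and at a mean of 0.18, whereas it was at 3.40 in CMK6 and reached 1 RPM in 12 of 14 cells, the exceptions being cells 10 and 14. ESRP1 was at 5.51 in CMK9 and 7.2 in CMK6. Of 23 measured junction genes 20 passed, with 2 past -2 (GRHL2 and CDH1, beside 0.992% over all genes) and 4 past -1 (6.64%). In the other direction 2 were past 1 (DSP and CLDN10, beside 12.1% over all genes), and the median difference was -0.08. KRT18, JUP and CTNNA1, parts of the keratin and junction plaques, differed by 0.01, 0.08 and 0.05.

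Beyond EOMES the primitive streak list held little signal. Only 4 of its 20 members passed, and all 4 were past 1: EOMES, the ligands NODAL (3.56 and 1.77, a difference of 1.79) and WNT3 (2.63 and 1.56), and the activin antagonist FST (7.11 and 5.92). Since members passed mainly through the line where they were high, the median of 1.49 over these 4 is no measure of the list. MIXL1 reached 1 RPM in 4 of 8 CMK9 and 2 of 14 CMK6 cells, and T in 1 of 8 and 1 of 14. GSC, MESP1 and SP5, further genes of the streak, were listed at 0 in all 22 cells, as were the endoderm factors SOX17 and GATA6. The mean over the 20 members ran from 0.77 to 1.49 in CMK9 cells and from 0.32 to 1.07 in CMK6 cells, with CMK6 cell 14 highest of its line.

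In the list of NODAL and activin signalling, 14 of 15 measured genes passed, with 1 past 2, 4 past 1 (12.1% over all genes) and 2 past -1 (6.64%), and a median difference of 0.34. SMAD3, which carries the signal into the nucleus, was at 4.26 in CMK9 and 1.33 in CMK6, and was listed at 0 in 8 CMK6 cells. SMAD7, the inhibitor of that step, was at 4.04 and 6.03, while SMAD2 differed by 0.18. The antagonists LEFTY1 and LEFTY2 differed by 0.51 and -0.08 between the lines and varied widely within each.

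Feedback genes of FGF and ERK signalling were higher in CMK9 than in CMK6 on feeder. In the mean over the whole FGF and ERK list, though not in each feedback gene, feeder-free CMK6 lay near CMK9. Of 19 genes 15 passed, 3 past 2 (2.02% over all genes) and 9 past 1 (12.1%), with 1 past -2 and 2 past -1, and the median difference was 1.12, beside 0.0924 over all genes. With log2 of the mean RPM in place of the mean of log2, that median was 0.48. The mean level over the 19 genes had a median over cells of 4.68 in CMK9, 4.06 in CMK6 on feeder and 4.66 in feeder-free CMK6. DUSP6, a phosphatase that ERK induces and that switches ERK off, was at 8.37, 8.57, 8.43, 6.87, 8.53, 9.14, 8.12 and 8.68 in CMK9 and from 0 over a median of 4.97 to 8.19 in CMK6. The CMK9 cells were close together and the CMK6 cells spread over the whole scale, with 4 of them (9, 10, 13 and 14) above 6.87.

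The transcription factor ETV5 (6.00 and 3.06) and the feedback inhibitors SPRY2 (6.69 and 4.49) and SPRY4 (7.71 and 5.96) were higher in CMK9 too, as were SPRED1 and SPRED2, by 1.12 and 1.14. Among the receptors, FGFR3 was at 2.89 and 1.05, FGFR2 at 4.60 and 5.69, and FGFR1 at 7.71 and 7.85. The ligand FGF2 differed by -0.15, and EGR1, an immediate early gene, was lower in CMK9 (4.35 and 6.48). Feeder-free CMK6 also had more DUSP6 than CMK6 on feeder (7.41, a difference of 2.45), whereas SPRY4 was at 5.98 there. The lines' comparison and the feeder-free comparison share the CMK6 cells on feeder. Handling stress was not tested as a part of these differences. Over the 18 immediate early and dissociation genes that passed, the median difference was -0.07. Of them 4 were past -1 (6.64% over all genes) and 2 past 1 (12.1%). The summed level of the 19 measured ones was 1491 to 3599 RPM in CMK9 cells, with a median of 2025. In CMK6 cells it was 2009 to 4476 RPM, with a median of 3594.

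In other signalling lists single genes stood out. In the BMP list, 12 of 18 passed with a median of 0.53: the targets ID2 and ID3 were higher in CMK9 by 1.79 and 1.84, and ID4 was lower (4.91 and 7.61). Since that median was -0.34 with the median over cells, its direction depends on the summary. In the LIF list, 9 of 10 passed with a median of -0.43 (0.39 with the median over cells), while the feedback inhibitors SOCS3 (6.41 and 4.44) and SOCS2 were higher in CMK9 by 1.97 and 2.01. In the WNT list, 10 of 23 passed with a median of -0.09, with AXIN2, a target of WNT, at a difference of -1.55. KDR, a receptor for VEGF, was lower in CMK9 (1.33 and 4.27).

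**Figure D3:**
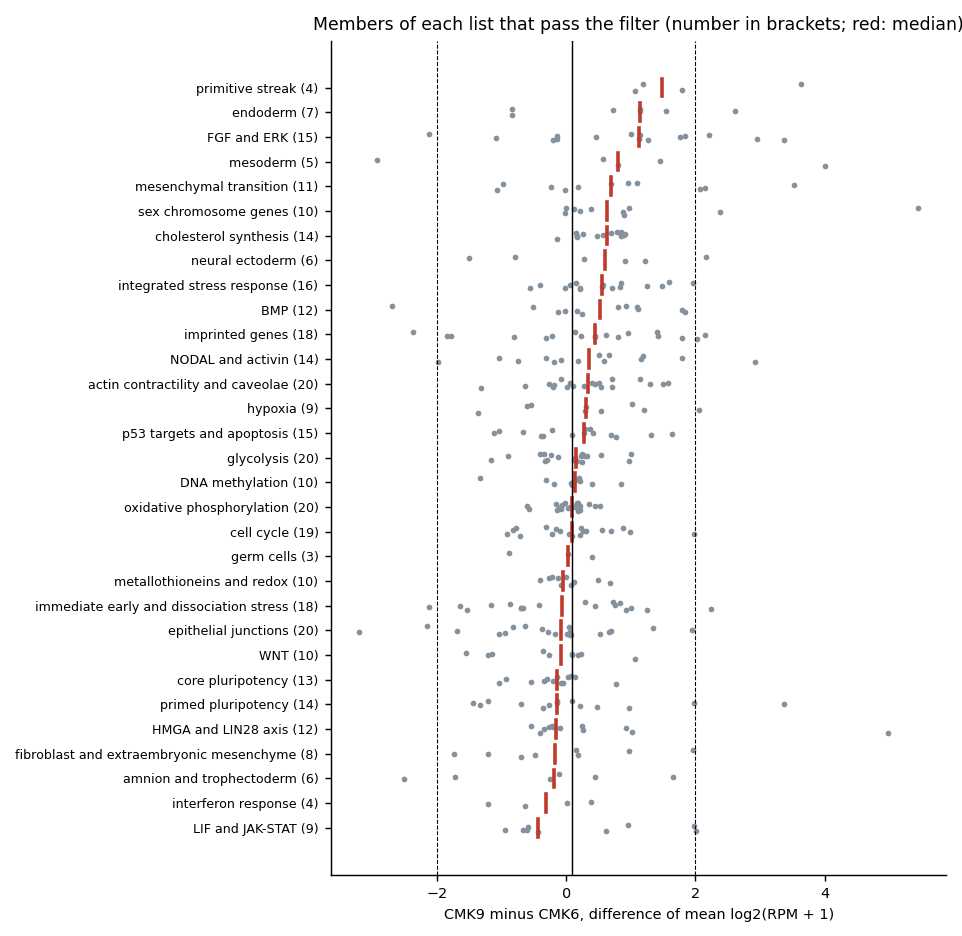
Difference CMK9 minus CMK6 of mean log2(RPM + 1) for each list member that passed the filter (grey points), with the list median in red and the number of members in brackets, for lists with at least 3 such members. The solid line is the median of all kept genes, 0.0924, and the dashed lines are at -2 and 2; FGF and ERK lies at 1.12 and core pluripotency at -0.14.

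XIST, the RNA that coats the inactive X chromosome, was the named gene with the largest positive difference. It was at 5.48, 5.85, 5.52, 8.53, 6.86, 5.12, 7.43 and 6.26 in the CMK9 cells. In CMK6 it ran from 0 to 4.39, with a median of 0.59, and feeder-free CMK6 cells reached at most 2.11. No cell of CMK6 overlapped CMK9, and the difference of means was 5.45. TSIX, its antisense partner, was at 2.42 and 0.04, but no source used here gives the strand of counting, so reads of XIST and TSIX cannot be told apart. The 8 other X-linked genes of that list that passed, such as KDM6A (0.88) and USP9X (0.12), all lay between -0.02 and 0.96. No Y-linked gene of the list was matched to a measured gene, so the sex of the lines was not read from these data.

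Several genes were present in nearly every CMK6 cell and missing from CMK9. VAPB, a protein that tethers the endoplasmic reticulum to other membranes, was listed at 0 in all 8 CMK9 cells, which allows a share of up to 37.5% of cells with a read at this number of cells. It was at 1.92 to 6.79, with a median of 5.13, in all 14 CMK6 cells and at 5.52 to 6.94 in all 9 feeder-free cells. It reached 1 RPM in 376 of 390 embryo cells. VAPB therefore separated the lines with no overlap, and its means were 0 and 5.02.

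PTGR1, a prostaglandin reductase, and SORD, sorbitol dehydrogenase, did not overlap either, but were parted only by values near 0. PTGR1 was at most 0.47 in a CMK9 cell and 0.59 to 5.64 in CMK6, and SORD at most 0.48 against 0.90 to 5.40. The edges of these ranges lie below 1 RPM, where single reads decide. PTGR1 reached 1 RPM in 12 and SORD in 13 of 14 CMK6 cells. TSTD1, at 4.11 in CMK9 cell 1 and at most 0.49 in the other CMK9 cells, was at 1.24 to 6.47 in CMK6. HTATIP2 and CTHRC1 were listed at 0 in all CMK9 cells and reached 1 RPM in 12 and 11 of 14 CMK6 cells. A gene with no symbol, LOC102116757, had the largest negative difference of all, at most 4.09 in CMK9 and 6.4 to 8.31 in CMK6.

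SOHLH2, a germ cell transcription factor, behaved differently between the 2 CMK6 cultures. It was at most 0.58 in CMK9 and at 4.27 to 6.73 in 13 of 14 CMK6 cells on feeder, with 0 in cell 9. In feeder-free CMK6 it reached 1 RPM in only 2 of 9 cells. DCLK1, the kinase gene next to SOHLH2 in the reference gene order, had the opposite sign, at 4.18 in CMK9 and 1.22 in CMK6. SERPINB6, a protease inhibitor detected in all 22 cells, was at 2.59 to 6.75 in CMK9 and 6.42 to 10.11 in CMK6.

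The remaining genes with large positive differences were FRMD4A (3.72), PGPEP1 (3.63), GJC1 (3.55), APCDD1 (3.43), GBX2 (3.38), SPSB4 (3.36), OCIAD2 (3.34), CASP8 (3.31) and LYN (3.31). They include a gap junction protein (GJC1), an inhibitor of WNT signalling (APCDD1), a homeobox factor (GBX2), an initiator caspase (CASP8) and a SRC-family kinase (LYN). In GBX2, 5 CMK6 cells (6, 9, 10, 11 and 14) were at 2.73 to 6.10 and the other 9 at 0.64 or less. The remaining genes with large negative differences, -3.33 to -4.39, were ARHGEF19, KIAA1598, PRICKLE1, KCNS3, ZDHHC4, GSTO2 and PLEKHG5. PRICKLE1 encodes a protein of planar cell polarity.

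Of 24 measured imprinted genes, which are expressed from 1 parental copy, 18 passed. Of these 2 were past 2 and 1 past -2, 5 were past 1 (12.1% over all genes) and 3 past -1 (6.64%), and the median difference was 0.45. NDN was listed at 0 in all CMK9 cells and reached 1 RPM in 8 of 14 CMK6 and 8 of 9 feeder-free cells. NAP1L5 was listed at 0 in all 14 CMK6 cells and reached 1 RPM in 4 of 8 CMK9 cells and 2 of 9 feeder-free cells. PHLDA2 was higher in CMK9 (4.46 and 2.30) and MEST lower (4.75 and 6.59).

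Of 9 measured genes of the antigen presentation list only 2 passed, both past 1 in favour of CMK9 (12.1% over all genes). The mean level over all 9 genes had a median over cells of 1.65 in CMK9 and 1.71 in CMK6. Their summed level had a median of 1080 RPM in CMK9 and 446 RPM in CMK6. The 2 passing genes are therefore no measure of the list. B2M, the light chain of class I molecules, was at 10.03 and 8.80, and TAPBP, which loads peptides on them, differed by 1.28. Class I heavy chain genes form a family of near copies whose reads the counting could split, so no value is given for them. DNMT3B, a DNA methyltransferase of primed cells, was at 9.6 in CMK9 and 10.93 in CMK6, while DNMT1 differed by 0.17. None of 20 oxidative phosphorylation genes was past 1, with a median difference of 0.09. None of the 14 cholesterol synthesis genes that passed was past 1 either, but their median was 0.63, and feeder-free minus on-feeder CMK6 gave 1.20. No HOX gene passed the filter.

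Runs of neighbouring genes differed in the same direction, and the 2 with the highest and the lowest running median are described here. The deposited table gives no positions, so genes were placed in the order of a newer reference assembly of the species (T2T-MFA8v1.1) by gene ID. It held a place for 10107 of the 10581 kept genes, and the median difference was taken over 25 neighbouring genes at a time. The running median peaked at 1.53 around ABHD13 and was lowest, at -0.73, around GGNBP2, while on all other chromosomes than that of ABHD13 it stayed at 0.87 or less. In feeder-free minus on-feeder CMK6 it lay between -0.85 and 0.61. This scan was made after the data were seen, and its 2 extreme stretches were chosen by their values, so their differences are a description. Other runs were past 0.2 too: ODF2L to CZIB held 72 windows with a highest median of 0.54, and KALRN to IFT57 held 51 with 0.87, a larger size than that of the lowest window. Past 0.3, the longest higher run was ZNHIT6 to HSPB11, with 67 genes, beside 52 in the stretch around ABHD13.

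The stretch higher in CMK9 held 74 genes from KPNA3 to ARHGEF7 (running median past 0.2). It includes MYCBP2, SPRY2, ABCC4, CLDN10, STK24, ZIC5, ZIC2, TMTC4, COL4A1 and COL4A2. Of these 74 genes 59 were higher in CMK9 and 36 by at least 1 (48.6%, beside the 12.1% over all genes). Their summed RPM was 5604, 5734, 5729, 5111, 5616, 4675, 5676 and 4737 in CMK9 cells 1 to 8. In CMK6 cells it was 2972 to 4370 with a median of 3634, so that the cells did not overlap and the means had a ratio of 1.47.

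The other 115 kept genes of the same chromosome gave a ratio of 1.05 in summed RPM, yet 26 of them (22.6%) were higher by at least 1 and 8 by at least 2. These 115 include the genes after the last full window. The higher level continued past the last full window, since CUL4A, near the chromosome's end, was at 6.66 to 7.11 in CMK9 and 2.16 to 6.43 in CMK6. STK24, a kinase gene within the stretch, was likewise without overlap, at 7.31 to 8.23 and 4.56 to 7.15. Feeder-free CMK6 cells had a summed RPM of 3257 to 4462, below every CMK9 cell. As the CMK9 values helped to choose the stretch, this is no independent check.

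The stretch lower in CMK9 held 155 genes from SLC46A1 to TBKBP1, among them RPL23A, AP2B1, COL1A1 and IGF2BP1. In it 131 genes were lower in CMK9, mostly by little: 30 by at least 1 (19.4%, beside 6.64% over all genes) and a median difference of -0.56. Its summed RPM was 12985, 12934, 13190, 13069, 12232, 12579, 11981 and 12519 in the CMK9 cells and 16662 to 20223, with a median of 18030, in the CMK6 cells. No cell overlapped, and the ratio of means was 0.702, against 1.02 for the other 450 kept genes of that chromosome.

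Feeder-free CMK6 cells had 15094 to 18628 RPM over these 155 genes, above every CMK9 cell, whose values helped to choose this stretch too. AP2B1, an adaptor subunit of clathrin coats, was at 5.32 to 6.01 in CMK9 and 6.25 to 6.98 in CMK6, while feeder-free cells, at 5.61 to 6.79, overlapped both. The cause of the difference was not tested for either stretch.

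**Figure D4:**
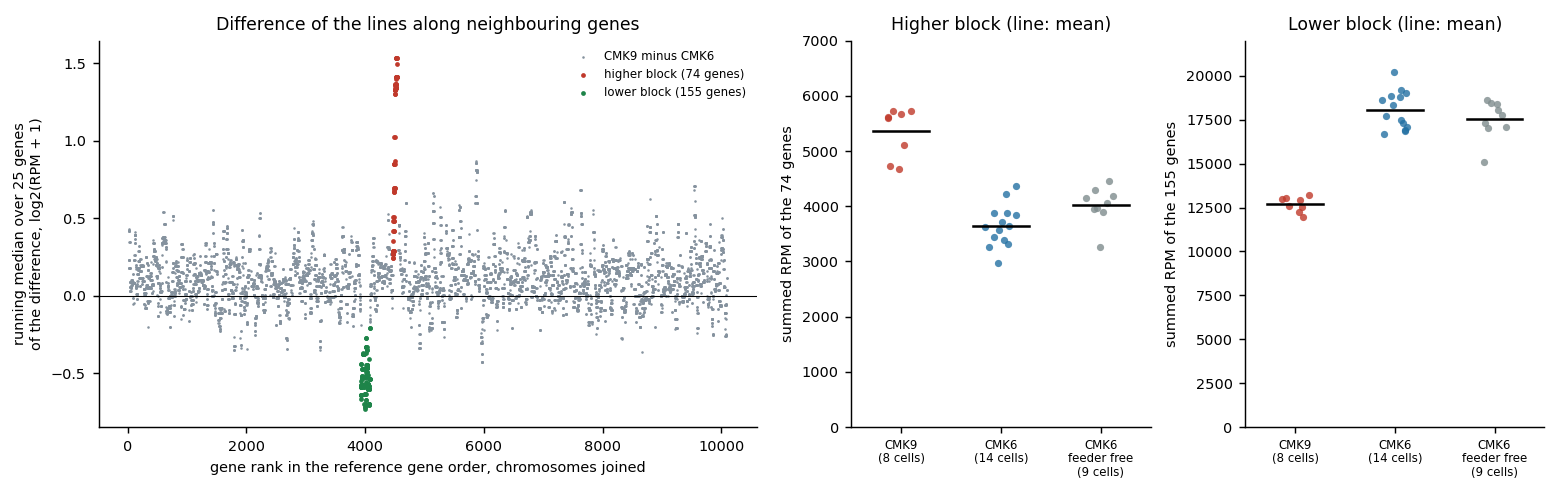
Left, running median over 25 neighbouring genes of the difference CMK9 minus CMK6, against gene rank in the reference order with chromosomes joined, with the 74-gene stretch in red and the 155-gene stretch in green. Right, summed RPM of each stretch in single cells of the 3 cultures (line: mean), where all CMK9 cells lie above (higher block) or below (lower block) all CMK6 cells.

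Several list members named above lie in these stretches. SPRY2 of the FGF list, CLDN10 of the junction list, ZIC2 and ZIC5 of the primed and neural lists, KLF5 of the naive list and COL4A1 and COL4A2 of the endoderm list are in the higher one. Without them the FGF and ERK median was 1.06 and the endoderm median 0.71 in place of 1.14. Only 7 of the 18 measured endoderm genes passed the filter. A gene could pass through the line where it was high, so the endoderm median is no measure of that list. HMGA2, VIM, EOMES, CDH1, VAPB and DUSP6 are in neither stretch, and XIST had no place in the order.

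Cells of a line were only slightly more alike than cells of different lines. Over the kept genes, pairs of CMK9 cells had a median Pearson correlation of 0.725 (0.678 to 0.799, 28 pairs), pairs of CMK6 cells 0.714 (0.654 to 0.772, 91 pairs) and pairs across the lines 0.688 (0.623 to 0.758, 112 pairs). These are correlations across genes, which are not independent, and pairs share cells. All 8 CMK9 cells and 13 of 14 CMK6 cells had a higher median correlation with their own line, cell 14 being the exception at 0.696 and 0.701. The median SD over cells of a gene was 0.92 in CMK9 and 1.09 in CMK6.

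Several genes were among the most variable in both lines. Among genes with a symbol and a line mean of at least 2, CYR61, EGR3, LEFTY2 and FOS were within the 10 largest SDs of each line. CYR61, a target of YAP and of serum signals, ran from 0 to 10.24 in CMK9 and 0.41 to 10.31 in CMK6. LEFTY2, a target and inhibitor of NODAL, ran from 0 to 9.82 and 0 to 9.36. CMK9 also had ADM, PLAU, TXNIP, IRX2 and ABCA1 in that group, and CMK6 had NPPB, CCN2, HAS2, SAMD4A, EGR1 and VGF.

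CMK6 cell 14 held several genes that were high in CMK9 and low or absent in most CMK6 cells. EOMES (5.91), DCLK1 (6.46), GBX2 (6.10), SMAD3 (5.46) and CASP8 (4.54) were present in it, and GRHL2 and KDR were listed at 0. It kept CDH1 at 4.54, POU5F1 within the range of its line, SOHLH2 at 5.98 and VAPB at 3.8, and XIST was listed at 0. CMK6 cell 10 had no CDH1 or GRHL2 but also no EOMES, with VIM at 8.92 and HMGA2 at 7.17, each the highest of its line. Without these 2 cells, a choice made after seeing them, 241 genes were at 2 or more and 127 at -2 or less.

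CMK9 cell 1 was the cell of its line with the smallest gap between its likeness to CMK9 and to CMK6. It had the highest CDH1 (6.08), ESRP1 (7.69) and EPCAM (7.55) of its line, the lowest CDH2 (3.13), and TSTD1 and KDR at 4.11 each. Its median correlation was 0.728 with its own line and 0.724 with CMK6. XIST (5.48), VAPB (0), SOHLH2 (0) and both neighbour stretches stayed on the CMK9 side. CMK9 cell 5, at the other end, had no CDH1, the highest EOMES of the line (7.89), and SOX2 at 8.65.

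Single cells also carried genes found in no other cell of their line at such a level. CMK6 cell 6 had the homeobox gene CDX1 at 6.56 and every other CMK6 cell had it at 0, and CMK6 cell 5 had the neural factor NEUROD4 at 7.23. CMK9 cell 6 had ADM at 9.28 and CYR61 at 10.24. PAX6, a neural factor, reached 1 RPM in 2 CMK6 cells and was listed at 0 in all CMK9 cells.

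**Figure D5:**
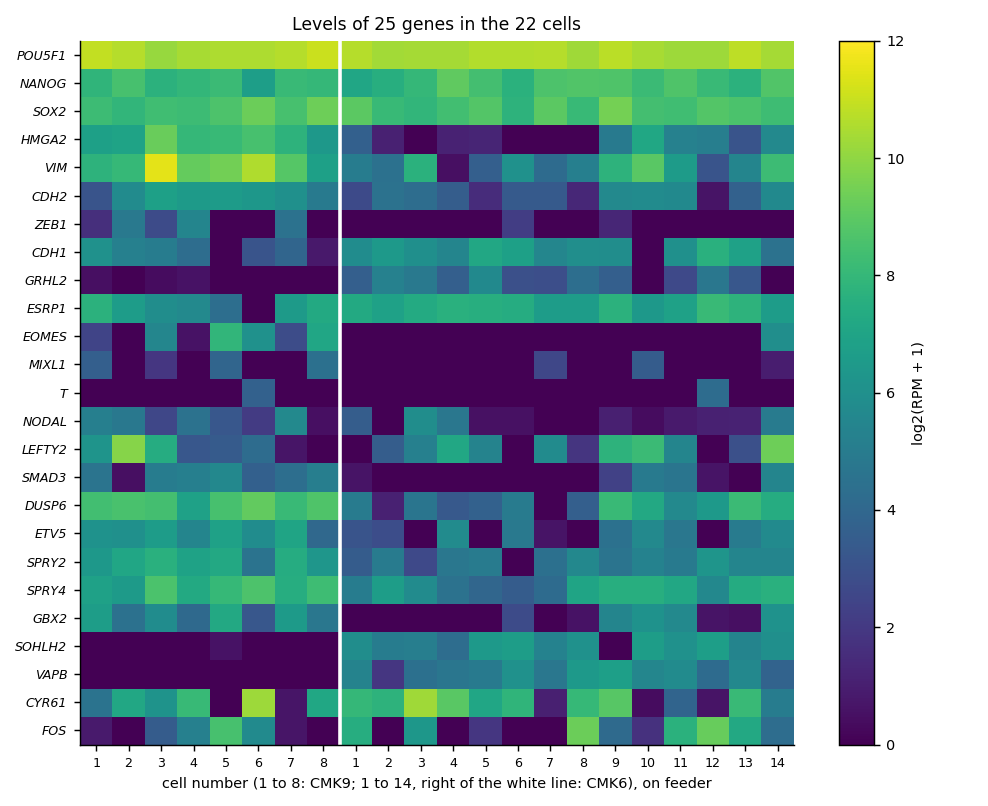
Levels of the genes in rows, as log2(RPM + 1), in the 8 CMK9 cells (left of the white line) and 14 CMK6 cells (right), on feeder. POU5F1, NANOG and SOX2 are high in all cells, VAPB and SOHLH2 are dark in CMK9, and CMK6 cell 14 shows EOMES at 5.91.

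The spread within CMK6 reached into the genes that separated the lines. HMGA2 was at 3.69, 1.08, 0, 1.17, 1.24, 0, 0, 0, 4.91, 7.17, 5.28, 5.12, 3.13 and 5.64 in CMK6 cells 1 to 14. In the order of the title numbers, the mean level over the FGF and ERK list was 2.79 to 4.09 in CMK6 cells 1 to 8 and 4.39 to 4.87 in cells 9 to 14, beside 4.24 to 4.85 in CMK9. HMGA2 and this list thus moved with the title numbers within CMK6, and in cells 9 to 14 the list was at the level of CMK9. The cut between cells 8 and 9 was drawn after the values were seen, and other lists moved too. The mean over the integrated stress response list was 4.175 to 6.195 in cells 1 to 8 and 5.41 to 6.685 in cells 9 to 14. In CMK9 that mean was 5.445 to 6.443. What the title numbers stand for is not stated, and their part in the differences between the lines was not tested.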

How the data were processed

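Each sample is 1 cell. The authors deposited RPM per gene. Cutadapt 1.3, TopHat 1.4.1 and Cufflinks 2.2.0 appear in the submitters' processing notes without a role, and macFas5 as the monkey build per the file headers. No source used here states cell filters, spike-ins or strand. Of 29095 genes, 298 held no value. Of 14758 LOC names, 3296 were given a symbol by gene ID from the reference table. Reads per cell were taken from the most common value above 0.01 RPM, of which at least 99.77% of low multiples were whole within 0.1 read. No cell was removed and no doublet caller was run.

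Levels are means of log2(RPM + 1). Named were HMGA2, VIM, EOMES and CDH1, the 15 largest differences each way among genes with a symbol at 1 RPM or more in 75% of the higher line's cells, up to 4 genes per list (36 lists), the 10 largest SDs per line, and up to 3 genes per cell at 6 or more. Other genes were named after their values were seen. The members and lists were chosen with earlier results of these data known. The planned medians per chromosome were replaced by the order of neighbouring genes, as the reference is another build. Computation used Python, numpy and pandas, checked on simulated cells. Some genes that these rules name are not reported here.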

Additional observations from a re-analysis of the deposited data

Results flagged for a closer look

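In 13 of 69 sets of values over the 8 CMK9 cells, 1 cell lay far from the others (gap to the nearest cell as a share of the range, above the 95% value for 8 cells). Chance alone gives about 1 in 20 for values with no ties, a rate that does not hold for genes at 0 in most cells. CMK9 cell 1 was the distant cell for CASP8 (0.641, listed at 0), FRMD4A (0.605), GJC1 (0.715), GSTO2 (0.897) and TSTD1 (0.882), each time on the side of the CMK6 mean. The genes screened were the markers and those with the largest differences between the lines. A gene near 0 in the other CMK9 cells can depart only upward. That side was therefore largely fixed by the choice of genes and is no measure of likeness to CMK6. DUSP6 (0.554) was lowest in cell 4, and KIAA1598 (0.678) highest in cell 3. PTGR1, SOHLH2 and SORD (1.0 each) were listed at 0 in 7 cells and at 0.47, 0.58 and 0.48 in the other, so their values are set by the zeros. Among list means, the BMP list (0.584) was lowest in cell 2, the cholesterol synthesis list (0.7) highest in cell 8 and the metallothionein and redox list (0.575) highest in cell 5.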

How the results depend on the processing

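No paired analysis was possible because cells were numbered in accession order and the result comes from no test. The counts of genes at 2 or more and at -2 or less, 214 and 105, were 13 and 9 with 10 RPM added, 710 and 293 with 0.1 RPM, 558 and 311 with the median over cells, 465 and 202 against feeder-free CMK6, 122 and 55 at a line mean of at least 4, 1279 and 703 at a threshold of 1, and 24 and 22 at a threshold of 3. With log2 of the mean RPM they were 226 and 286, which turns their balance round. No filter gave the same counts, since such a difference needs a mean of 2. Leaving out 1 cell at a time gave 199 to 259 and 95 to 128 genes, and differences of 4.76 to 5.32 for HMGA2, 3.14 to 3.84 for VIM, 3.08 to 4.21 for EOMES and -2.61 to -1.66 for CDH1. HMGA2 was 2.85 against feeder-free CMK6 and EOMES 6.07 with 0.1 RPM. These 4 genes kept their direction in all alternatives run. Of 219 recomputed list medians, 38 moved by over 1 SD between cells and 23 changed sign, in lists whose median was within 0.6 of 0. The cause of these changes was not tested.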

Other observations

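Feeder-free CMK6 differed from both on-feeder cultures in a marker of other cells: COL3A1 was at 1.04 to 4.25 in all 9 feeder-free cells, beside at most 0.62 in the 22 cells on feeder, and LUM reached 1 RPM in 5 of the 9 cells. Its part in the feeder-free values was not tested. A transcript with no symbol, LOC102135658, was at 7.14 to 10.48 in CMK9, at 0 to 10.41 in CMK6 on feeder and at a mean of 1.47 in feeder-free CMK6. CDK6, a kinase of the G1 phase, was higher in CMK9 by 1.98, the largest difference of the 19 cell cycle genes that passed, while MKI67 and PCNA differed by 0.09 and -0.10. Of 17 measured genes of the integrated stress response 16 passed, 4 of them past 1 (12.1% over all genes) and none past -1, with a median of 0.56. STC2, VLDLR, TRIB3 and ATF3 were the 4 past 1, at 1.97, 1.60, 1.48 and 1.25, while ASNS, PHGDH, PSAT1 and ATF4 were at -0.41, -0.03, 0.05 and -0.57. Within CMK6 the mean of this list also moved with the title numbers, as given above.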
